A study of Macaca mulatta with 2 samples.

Results

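Cortical interneuron identity genes were examined in the prefrontal cortex of infant rhesus macaques, in 1 control library and 1 library from an animal exposed to sevoflurane. The 10 genes were chosen by name and comprised the genes of GABA synthesis and vesicular loading (GAD1, GAD2 and SLC32A1) and the class markers PVALB, SST, LHX6, VIP, ADARB2, CALB2 and CALB1. Of these, 9 were found by symbol among the 33618 genes of the table, and all 9 reached the detection minimum of 1 CPM (reads scaled to a common library size) that 18050 genes of the table reached. CALB2 was not found under that symbol, and a row that matches it by gene identifier is described apart from the other 9.

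Both animals were Macaca mulatta of postnatal day 28 by the labels, which name no strain, allele or transgene. The sevoflurane animal breathed 2.5% to 3% of the anesthetic for 4 h at about postnatal days 7, 14 and 28 by the labels. The results of the paper name the same days, while its methods name later days for the later exposures. The cortex was taken right after the last exposure by those methods, and the handling of the control animal is not given in the sources used here. The other animals of the study were not analysed here, so there are no replicates. Every difference below compares these 2 libraries and not the conditions, no test across animals could be made, and no p-value is given.

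Cortical interneurons are the local inhibitory neurons of the cortex. They make GABA from glutamate with a pair of glutamic acid decarboxylases, load it into synaptic vesicles with a dedicated transporter, and are born mainly in the medial and caudal ganglionic eminences of the embryonic brain. Cells of medial origin include the fast-spiking parvalbumin cells and the somatostatin cells, whereas cells of caudal origin include the vasoactive intestinal peptide cells and many calretinin cells. Parvalbumin is known to appear late, as fast-spiking cells mature after birth, and volatile anesthetics such as sevoflurane enhance the GABA-A receptors on which these neurons act.

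The control was the deeper library by 1.72 times, with 16960880 reads on genes against 9839105 after sevoflurane. The 7 Y-linked genes looked up held 3 control reads against 4308 after sevoflurane. By these reads the sevoflurane animal was male and the control animal female. Sex, animal and exposure therefore cannot be told apart in any difference below. By the methods of the paper, the anesthesia group included a male and the control group did not. The reads were scaled by edgeR's TMM factors to CPM. The log2 ratio of sevoflurane over control used a prior count of 2, and its 95% interval was derived from exact binomial (Clopper-Pearson) bounds on the fraction of a gene's reads that fell in the sevoflurane library, without the prior count. These intervals cover counting error only and not the variation between animals. A gene was called higher or lower when it differed by 1 or more on the log2 scale, which is 2-fold, with an interval that excluded equal expression. No transcript lengths were used here, so levels are compared between libraries and not between genes.

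PVALB stood apart from the other interneuron genes. It was 5.50-fold higher in the sevoflurane library by CPM without the prior count, while the other 8 genes were within 2-fold of the control. Of the 9 genes, 1 was called higher and 0 were called lower, where 7.56% of all tested genes were called higher and 5.47% lower. The median log2 ratio of the 9 genes was 0.00069, beside -0.0048 over all tested genes, and without PVALB the median of the other 8 was -0.12. By the interval alone, 4 of the 9 were lower (GAD1, GAD2, SLC32A1 and SST) and 2 were higher (PVALB and CALB1), where 28.1% of all tested genes were lower and 28.4% higher by this rule. The remaining 3 (LHX6, VIP and ADARB2) had intervals that included equal expression. In bulk tissue, fewer cells of a type and less RNA per cell cannot be told apart.

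**Figure D1:**
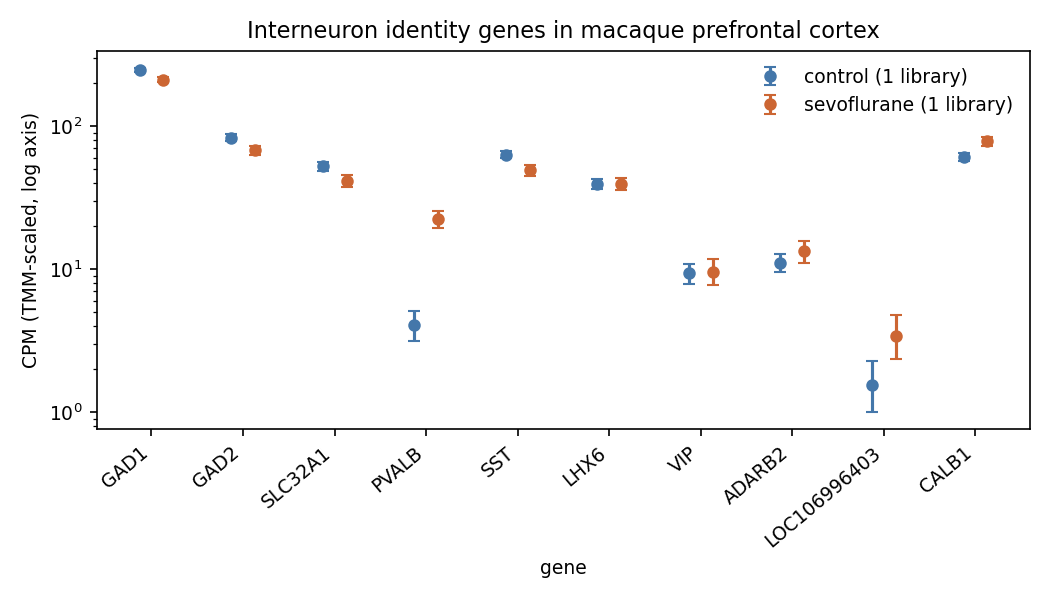
CPM of each interneuron gene (log axis) in the control and the sevoflurane library, with exact Poisson 95% intervals that cover counting error only. PVALB goes from 4.05 to 22.3 CPM, while GAD1, GAD2, SLC32A1 and SST lie slightly lower in the sevoflurane library. The row LOC106996403 is matched to CALB2 by gene identifier, and heights are not comparable between genes because transcripts differ in length.

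GAD1, which encodes the decarboxylase that makes most of the GABA in the cell body, had 4159 reads in the control against 2093 in the sevoflurane library. These were 247 CPM (exact Poisson 95% interval 240.03 to 255) and 211 CPM (202 to 219.99). Its level was therefore lower in the sevoflurane library, at 85.2% of the control. The log2 ratio was -0.23 (95% interval -0.31 to -0.16), and 32.1% of tested genes had a lower ratio.

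GAD2 encodes the second decarboxylase, which is enriched at nerve terminals. It had 1398 control reads and 671 sevoflurane reads, or 83.2 and 67.6 CPM. Its log2 ratio of -0.30 (-0.44 to -0.17) overlapped that of GAD1. Within a library, the reads on the pair stood in nearly the same proportion, with 297 GAD1 reads per 100 GAD2 reads in the control against 312 in the sevoflurane library. The ratio of these proportions was 1.05, with a conditional exact 95% interval of 0.942 to 1.17 that included 1.

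SLC32A1 encodes the vesicular GABA transporter, which loads GABA into synaptic vesicles. It had 879 reads in the control against 411 in the sevoflurane library, or 52.3 and 41.4 CPM, and its log2 ratio was -0.34 (-0.51 to -0.17). The 3 genes that define the GABA phenotype thus all lay below the control, with levels of 79.1% to 85.2% of it. The size of these differences, and for GAD1 and GAD2 the direction, depended on the scaling. When the libraries were scaled to the summed reads of 10 pan-neuronal markers, which were themselves lower in the sevoflurane library (median -0.37), the log2 ratios became 0.10 for GAD1, 0.03 for GAD2 and -0.01 for SLC32A1. When they were scaled to the summed reads of 10 excitatory neuron markers, whose median was 0.44, the log2 ratios became -0.65, -0.72 and -0.76.

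SLC17A7 encodes the main vesicular glutamate transporter of cortical excitatory neurons and was taken as an excitatory counterpart within each library. It had a log2 ratio of -0.13, whereas 6 of the 10 excitatory markers were higher by the interval. For every 100 SLC17A7 reads there were 5.24 SLC32A1 reads in the control against 4.53 in the sevoflurane library, a ratio of 0.864 (0.765 to 0.975). GAD1 reads per 100 SLC17A7 reads were 24.8 and 23.1 (ratio 0.93, 0.877 to 0.986), and GAD2 reads were 8.34 and 7.40 (ratio 0.887, 0.805 to 0.977). All 3 intervals at 95% excluded 1 on the lower side, and wider intervals with an error rate of 0.1% all included it. These proportions do not depend on how the libraries were scaled but do depend on the choice of SLC17A7. Against the summed reads of the 10 excitatory markers the 3 genes lay lower, at the values given above. Of that sum, 79018 control and 62617 sevoflurane reads, CAMK2A held 33794 and 24891 and NRGN 17449 and 20754. Scaling without CAMK2A and NRGN was not run, so these values need not hold for the other markers.

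PVALB encodes parvalbumin, the calcium buffer of fast-spiking basket and chandelier cells. It had 68 reads in the control against 221 in the sevoflurane library, although the sevoflurane library was the shallower. These were 4.05 CPM (3.14 to 5.13) and 22.3 CPM (19.4 to 25.4). The Poisson intervals of the levels did not overlap. The log2 ratio was 2.42 (2.06 to 2.87), and 98.8% of the tested genes had a lower ratio, which placed PVALB at rank 222 from the highest of 18050. At a threshold of 4-fold PVALB was still called higher, as were 1.95% of all tested genes, and none of the 9 was called lower, as 1.22% of all tested genes were.

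SST encodes somatostatin, the peptide of the other large class of medial origin. It had 1061 reads in the control against 490 in the sevoflurane library, or 63.1 and 49.3 CPM. SST was lower, at 78.1% of the control (log2 ratio -0.35, -0.51 to -0.20), and like the GABA genes it lay close to the control with the pan-neuronal scaling (-0.03) and further below it with the excitatory marker scaling (-0.78). PVALB and SST therefore differed in opposite directions with TMM scaling. Per 100 SST reads there were 6.41 PVALB reads in the control against 45.1 in the sevoflurane library, a ratio of 7.04 (5.22 to 9.57). Per 100 GAD1 reads there were 1.64 and 10.6 PVALB reads, a ratio of 6.46 (4.87 to 8.65). SST itself kept its proportion to GAD1 within counting error, with 25.5 and 23.4 reads per 100 GAD1 reads (ratio 0.918, 0.813 to 1.04).

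LHX6 encodes a transcription factor that specifies interneurons of medial origin and stays on in parvalbumin and somatostatin cells. It had 663 and 392 reads and the same level in both libraries, at 39.45 CPM in the control and 39.47 CPM after sevoflurane. Its log2 ratio was 0.00069 (-0.18 to 0.18) with TMM scaling, 0.33 (0.14 to 0.51) with pan-neuronal and -0.42 (-0.61 to -0.24) with excitatory marker scaling, all far below the ratio of PVALB. Relative to GAD1, LHX6 was slightly higher in the sevoflurane library, at 18.7 reads per 100 GAD1 reads against 15.9 in the control (ratio 1.17, 1.02 to 1.35).

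**Figure D2:**
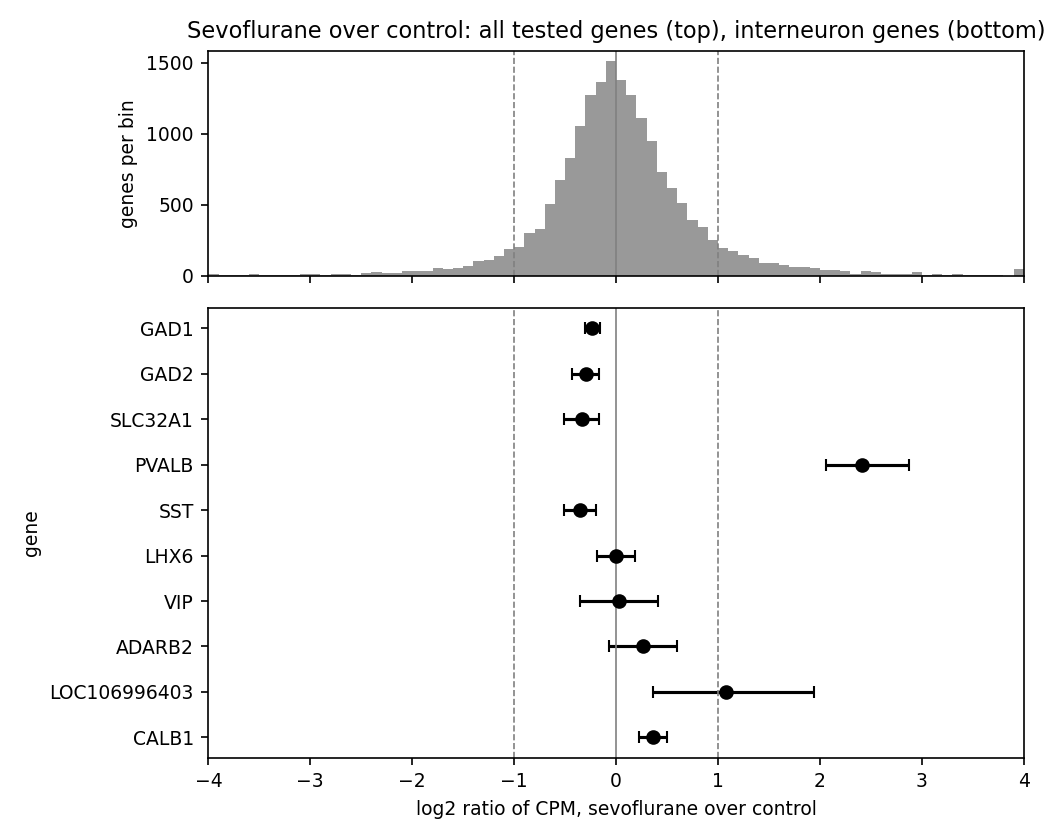
Log2 ratio of CPM, sevoflurane over control, as a histogram over the 18050 tested genes (top, in bins of equal width, with ratios beyond the axis placed in the end bins) and for each interneuron gene with its 95% counting interval (bottom). Dashed lines mark 2-fold. PVALB at 2.42 lies in the upper tail of all genes, and GAD1, GAD2, SLC32A1, SST, LHX6, VIP, ADARB2 and CALB1 lie between -0.35 and 0.36.

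VIP encodes vasoactive intestinal peptide, the marker of interneurons of caudal origin that mostly inhibit other interneurons. It had 157 reads in the control against 95 in the sevoflurane library, or 9.34 and 9.57 CPM. The levels were within counting error of each other (log2 ratio 0.03, -0.35 to 0.41). With the excitatory marker scaling the log2 ratio was -0.38 (-0.77 to -0.01), and the interval then excluded equal expression. VIP reads per 100 GAD1 reads were 3.77 and 4.54 (ratio 1.20, 0.917 to 1.57), and per 100 SST reads 14.8 and 19.4 (ratio 1.31, 0.982 to 1.74).

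ADARB2 encodes a member of the RNA-editing deaminase family and marks interneurons of caudal origin. It had 186 and 132 reads, or 11.1 and 13.3 CPM, with a log2 ratio of 0.26 (-0.07 to 0.59) whose interval included equal expression, and 0.58 (0.26 to 0.92) with pan-neuronal scaling, whose interval did not. In proportion to GAD1 it was higher in the sevoflurane library, with 6.31 reads per 100 GAD1 reads against 4.47 (ratio 1.41, 1.11 to 1.78), an interval that included 1 at the error rate of 0.1%. LHX6 and ADARB2, which mark the medial and the caudal lineage, stood at 356 LHX6 reads per 100 ADARB2 reads in the control against 297 in the sevoflurane library. The ratio of 0.833 (0.64 to 1.09) included 1, so no shift between the lineages was detectable by this pair.

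CALB1 encodes calbindin, a calcium buffer found in somatostatin cells and other interneurons and in upper-layer excitatory neurons. It had 1020 reads in the control against 776 in the sevoflurane library, or 60.7 and 78.1 CPM. CALB1 was 1.29-fold higher (log2 ratio 0.36, 0.23 to 0.50), except that the excitatory marker scaling gave -0.06. Per 100 GAD1 reads there were 24.5 and 37.1 CALB1 reads (ratio 1.51, 1.36 to 1.68). CALB1 and SST, which are present together in many cells, thus lay on opposite sides of the control with TMM scaling.

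CALB2 encodes calretinin, the calcium buffer of many interneurons of caudal origin in primate cortex. A row named LOC106996403 carries the gene identifier that RefSeq gives to CALB2 in the macaque assembly MMU8v2.0, and it held 26 reads in the control against 34 in the sevoflurane library. Its levels were 1.55 and 3.42 CPM, with a log2 ratio of 1.07 (0.37 to 1.94). Whether the gene model behind the deposited row was complete is not known, since the annotation is not given in the sources used here, so it was kept out of the counts above. With it included, 2 of 10 genes were called higher, beside 7.56% of all tested genes. Its interval included equal expression with the excitatory marker scaling and at the error rate of 0.1% (-0.13 to 2.47), and it did not reach a minimum of 5 CPM.

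**Figure D3:**
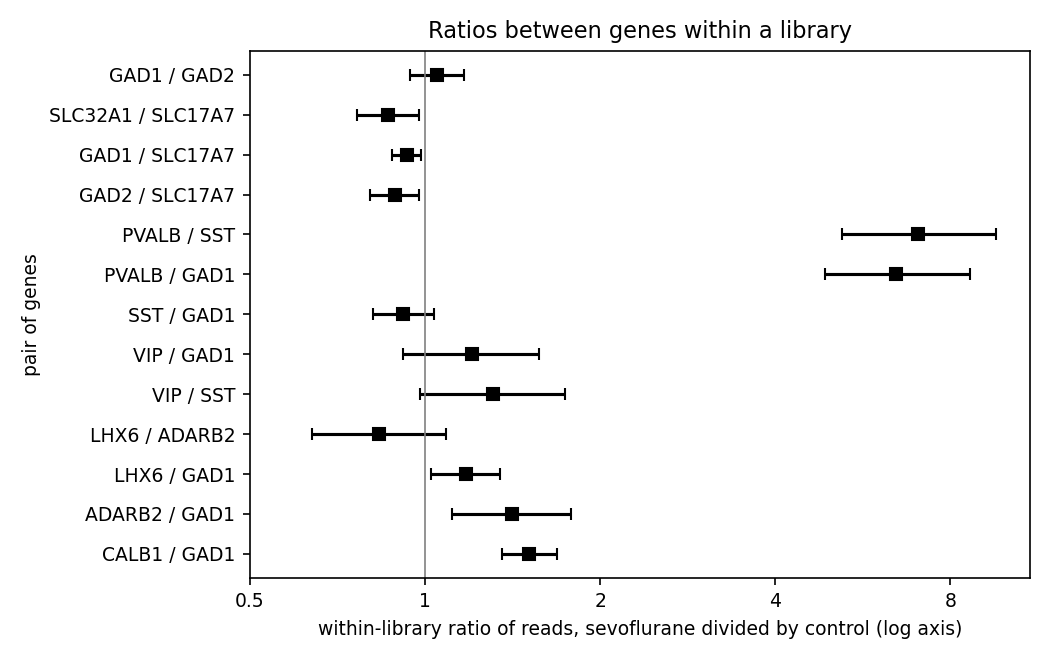
Ratio of reads between pairs of genes within a library, as sevoflurane divided by control (log axis), with conditional exact 95% intervals. The line at 1 marks the same proportion in both libraries. The pairs with PVALB lie at 7.04 and 6.46, and the other 11 lie between 0.833 and 1.51.

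Of the 16 pairs set, 13 were computed, and the 3 with CALB2 were not. The interval excluded 1 in 8 of the 13. The 2 pairs with PVALB and the pair of CALB1 and GAD1 also excluded 1 at the error rate of 0.1%, and the other 5 did not. The pairs share genes, and the 8 that involve GAD1 are not separate observations.

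Genes known from fast-spiking cells differed in both directions. Of 10 such genes, 1 was called higher, beside 7.56% of all tested genes, 0 were called lower and the median log2 ratio was 0.34. With the pan-neuronal scaling 4 were called higher and the median was 0.66, and with the excitatory marker scaling 1 was called higher and 1 lower, with a median of -0.07. SYT2, the calcium sensor of fast transmitter release at parvalbumin terminals, was the gene called higher, with 190 reads in the control against 853 in the sevoflurane library, or 11.3 and 85.9 CPM (log2 ratio 2.91, 2.70 to 3.16). SYT2 is also expressed outside parvalbumin cells. KCNC2, a potassium channel subunit of fast-spiking cells, was lower, with 4403 and 1739 reads (-0.58, -0.66 to -0.50). ERBB4, the neuregulin receptor of these cells, had 2374 and 1161 reads (-0.27, -0.38 to -0.17). By the interval alone, 5 of the 10 genes were higher and 2 lower, where 28.4% of all tested genes were higher and 28.1% lower. By the same rule 6 of the 10 excitatory neuron markers were higher and 4 lower.

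The transcription factors of the interneuron lineages were mostly within 2-fold of the control. Of all tested genes, 7.56% were called higher and 5.47% lower. Among 7 pan-GABAergic factors the median was -0.07 and 1 was called higher. DLX1, which acts in migrating and maturing interneurons, had 429 and 222 reads, and its interval included equal expression (log2 ratio -0.19, -0.43 to 0.05). The factor called higher was the row LOC106992350, matched to the nuclear receptor gene ESRRG by gene identifier, with 230 and 386 reads (1.5, 1.27 to 1.75). Of the 7 factors of the medial lineage, LHX8 had 0 reads in both libraries and NKX2-1 had 7 and 3, so 5 were tested, with 1 called higher, 0 called lower and a median of 0.05. MEF2C (0.05) and SATB1 (-0.06), the most abundant of the list, are shared with excitatory neurons. The 7 factors of the caudal lineage had a median of 0.22, which was the value of SALL1, and none was called at 2-fold. Which cells the reads on these factors came from was not tested. NR2F1, their most abundant member with ZBTB16, was at 0.61 (0.50 to 0.73), and ZBTB16 at -0.46 (-0.63 to -0.30), while PROX1, which specifies caudal interneurons, was at 0.06 (-0.14 to 0.25).

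Genes of other interneuron classes were lower more often than higher in the sevoflurane library. Of 16, 3 were called lower and 0 higher, where 5.47% of all tested genes were called lower. By the interval alone 12 were lower and 1 was higher, where 28.1% of all tested genes were lower, and the median was -0.52. With the pan-neuronal scaling 2 were called lower, 7 were lower and 2 higher by the interval, and the median was -0.19, with SNCG no longer called and GRIK1 at 0.03. With the excitatory marker scaling 7 were called lower, 14 were lower and 0 higher by the interval, and the median was -0.94. TH, the dopamine synthesis enzyme of a rare primate interneuron type, had 46 reads in the control against 4 in the sevoflurane library (-2.39, -4.70 to -1.31). HTR3A, a serotonin receptor of caudal interneurons, had 37 and 4 reads (-2.09, -4.40 to -0.97). TH (2.74 and 0.403 CPM) and HTR3A (2.20 and 0.403 CPM) reached the minimum of 1 CPM in the control library only. With the minimum raised to 5 CPM, 12 genes of the list were tested and 1 was called lower. By the interval alone 10 of these 12 were then lower and 1 higher. SNCG, a synuclein of a caudal class with cholecystokinin, had 517 and 133 reads (-1.19, -1.49 to -0.92), and the members with the most reads were RELN (4505 and 1813 reads, -0.55, -0.63 to -0.48), which encodes the secreted protein reelin, and GRIK1 (2477 and 1190 reads, -0.30, -0.40 to -0.20), which encodes a kainate receptor subunit.

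GABA uptake, breakdown and supply were described by 11 genes, of which 1 was called higher and 0 lower (median -0.05). This stood beside 7.56% of all tested genes called higher and 5.47% lower. SLC6A13, a GABA transporter known from the meninges, had 199 reads in the control against 247 in the sevoflurane library (1.06, 0.80 to 1.35). GLUL, the astrocytic glutamine synthetase, had 20075 and 11417 reads (-0.06, -0.09 to -0.02), and ABAT, which breaks GABA down, had 6021 and 3275 (-0.12, -0.18 to -0.06).

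**Figure D4:**
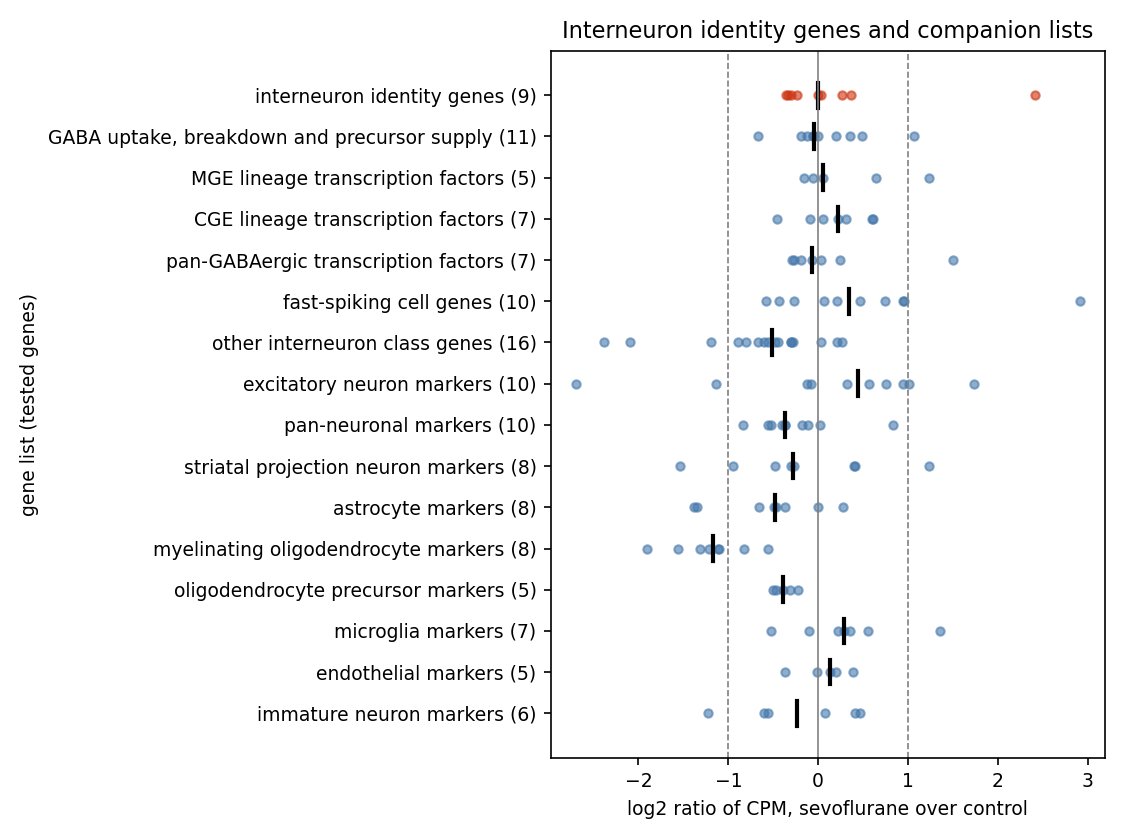
Log2 ratio of CPM, sevoflurane over control, for each tested gene (points) of the interneuron identity genes and of the companion lists, with the median of each list as a black bar and 2-fold as dashed lines. MGE and CGE stand for the medial and caudal ganglionic eminences. The medians run from -1.17 for myelinating oligodendrocytes to 0.44 for excitatory neurons, with the interneuron genes at 0.00069.

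Markers of other cells differed between the libraries too. For the counts of calls in these lists, 7.56% of all tested genes were called higher and 5.47% lower. The summed level of the 10 excitatory neuron markers, all with reads in both libraries of the labelled cortex, was 4702 CPM in the control against 6305 in the sevoflurane library, with 2 called higher and 2 lower (median 0.44). Among them SLC17A6 (1.73) and NRGN (1.01) were higher and NEUROD6 (-2.69) and FEZF2 (-1.14) were lower, while CAMK2A, their most abundant member, was at 0.32. The 10 pan-neuronal markers summed to 9255 and 7374 CPM with 0 called, from UCHL1 (-0.83) to RBFOX3 (0.83), and MAP2 (-0.37) and SYT1 (-0.40) had the most reads. The 2 lists of neurons thus lay on opposite sides of the control.

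Striatal projection neurons also use GABA, and the 8 genes looked up as their markers were all detected in both libraries. Their summed levels were 211 and 197 CPM, and whether either sample held such neurons was not tested. PPP1R1B was called higher (1.24) and PDE10A lower (-1.53), with a median of -0.29. The 8 myelin markers summed to 4152 and 2030.2 CPM, and 6 were called lower, among them MOG, MAG, MOBP, CNP and CLDN11, with a range from MOG (-1.90) to MBP (-0.56). The 8 astrocyte markers summed to 6618 and 4604 CPM, with AQP4 (-1.38) and GFAP (-1.35) called lower, SLC1A2 at -0.37 and SLC1A3 highest at 0.27. None of the markers in these lists was at 0 reads.

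The remaining lists held 2 called genes in all. The 5 oligodendrocyte precursor markers summed to 452 and 341 CPM with 0 called, from VCAN (-0.50) to CSPG4 (-0.22), and PDGFRA was at -0.40. The 7 microglia markers summed to 224 and 241 CPM with C1QB called higher (1.35), P2RY12 lowest (-0.52), CSF1R at 0.22 and CX3CR1 at -0.10. The 5 endothelial markers summed to 142 and 143 CPM with 0 called, from FLT1 (-0.37) to ESAM (0.39), with VWF at -0.02 and PECAM1 at 0.13. The 6 immature neuron markers summed to 1015 and 727 CPM with IGFBPL1 called lower (-1.23), SOX11 highest (0.47), STMN1 at -0.56 and DCX at -0.61. The part of any of these shifts in the interneuron values was not tested. The PVALB proportion to GAD1, at 6.46 times the control, does not depend on the scaling. Whether the mix of cells or the dissection had a part in it was not tested.

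**Figure D5:**
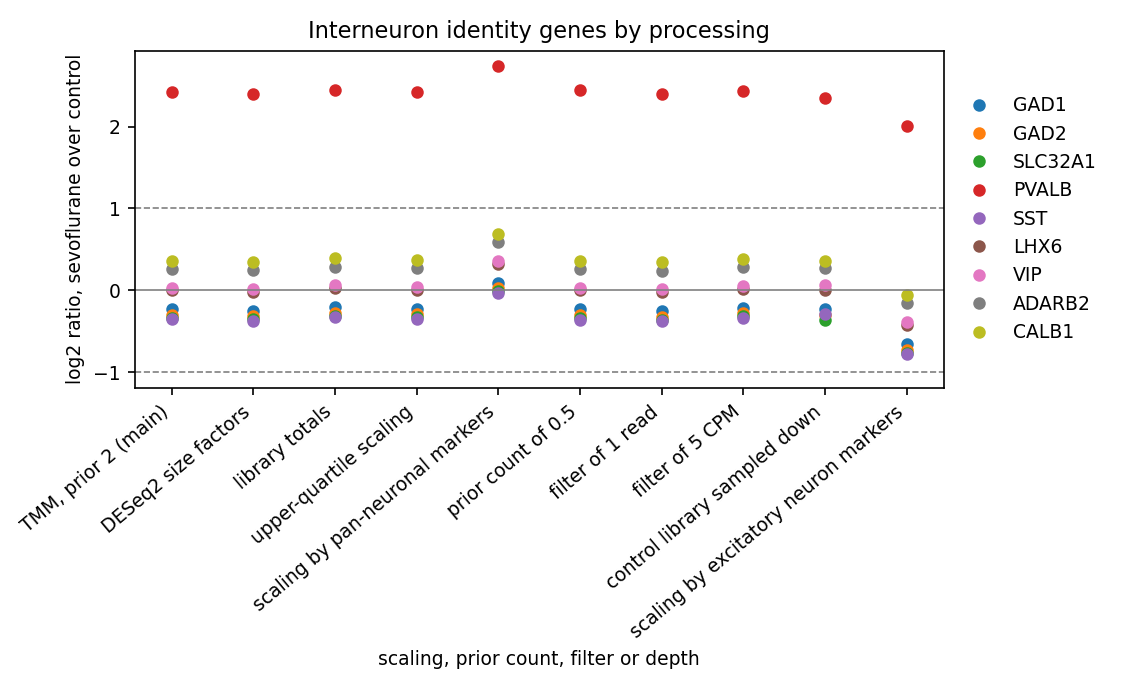
Log2 ratio of each interneuron gene under each scaling, prior count, filter or depth, with TMM and a prior count of 2 at the left and dashed lines at 2-fold. PVALB stays between 2.0 and 2.74, and the other genes shift together with the pan-neuronal and excitatory marker scalings.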

How the data were processed

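The deposited table held whole-number read counts per gene, which the authors gave without normalization, in 1 column for each of 2 libraries. The submitters' processing notes list HISAT2 2.0.4. The counting tool, strand setting, genome build and annotation are not given in the sources used here, so no coordinates or sequences are printed, and reads shared with overlapping or antisense genes or paralogs cannot be told apart. Samples were matched to groups by title.

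Counts were scaled with TMM in edgeR 4.0.16 (R 4.3.3) over genes that reached 1 CPM in a library, giving factors of 0.991 and 1.01. One read was worth 0.0595 CPM for the control and 0.101 CPM for the sevoflurane library. Ratios, exact intervals and proportions between genes were computed with scipy 1.17.1, numpy 2.4.6 and pandas 2.3.3 (Python 3.11.15), and plots drawn with matplotlib 3.10.9. All intervals cover counting error only, since each group has 1 library. No molecular identifiers are named, so duplicate reads could not be told apart. The intervals treat reads as independent and may be too narrow for that reason. With 1 library per group no quasi-likelihood test could be fitted. The procedure was tested on simulated counts with counting error only, which cannot test how it behaves under variation between animals.

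The genes and lists were chosen with earlier results of these data known. Named were all interneuron identity genes, and from each companion list the genes called at 2-fold and the 2 with the most reads, with the lowest and highest for other cell types. Some items that this rule covers are not reported here. CALB2 and ESRRG were looked up by RefSeq gene identifier. Alternatives were scaling by DESeq2 1.42.0 size factors, totals, upper quartiles or pan-neuronal markers, a prior count of 0.5, filters of 1 read and 5 CPM, the control sampled down to the sevoflurane depth, fold thresholds of 1.5 and 4, and an interval with an error rate of 0.1%. Excitatory marker scaling and the inclusion of the CALB2 row were added after seeing the data.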

Additional observations from a re-analysis of the deposited data

How the results depend on the processing

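PVALB was the 1 gene called at 2-fold under every alternative run, with log2 ratios from 2.0 to 2.74. It reached the minimum of 5 CPM in the sevoflurane library only, at 22.3 CPM against 4.05 in the control. That filter is therefore no separate check of the PVALB call. Under the alternatives that could move a ratio, other than the marker scalings, 0 of 63 values of the 9 interneuron genes left their counting interval. The marker scalings moved 15 of 18. The median log2 ratio of the 9 genes, 0.00069, became 0.33 with pan-neuronal and -0.42 with excitatory marker scaling, which shifted the median of all tested genes by 0.32 and -0.42, so that scaling sets the direction of the genes near the control. Calls higher, as a share of all genes called at 2-fold, went from 58.0% to 81.5% (2428 higher and 551 lower) and 23.4% (744 and 2435). With the CALB2 row, 2 genes were called higher. With an interval at an error rate of 0.1%, the ratios SLC32A1 to SLC17A7 (0.864), GAD1 to SLC17A7 (0.93), GAD2 to SLC17A7 (0.887), LHX6 to GAD1 (1.17) and ADARB2 to GAD1 (1.41) no longer excluded 1. No paired analysis was possible because a single library stands for each group, and no replicate could be left out. The 68 control reads limit the precision of the PVALB ratio.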

Other observations

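A pair of further gene lists was chosen after the PVALB and SYT2 values had been seen and is given as values only. Of 11 genes of fast-firing neurons that become abundant as fast-spiking cells mature, 3 were called higher and 0 lower. Of all tested genes, 7.56% were called higher and 5.47% lower. The median log2 ratio of the 11 was 0.69. By the interval alone 9 were higher and 2 lower, where 28.4% of all tested genes were higher and 28.1% lower. VAMP1, a vesicle fusion protein of fast synapses, was among the 3 called higher. It had 139 reads in the control against 206 in the sevoflurane library (1.31, 95% interval 1.01 to 1.65). The genes that were lower were KCNA1 (-0.26, -0.35 to -0.17) and LGI2 (-0.23, -0.43 to -0.04). These genes are also expressed in projection neurons, and the excitatory marker list had a median of 0.44.

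PVALB, CALB1 and CALB2 encode EF-hand proteins, which bind calcium through a helix-loop-helix fold. Of 20 other EF-hand calcium sensors and buffers of neurons, 1 was called higher and 0 lower, with a median of -0.01. By the interval alone 8 were higher and 8 lower. Of all tested genes, 7.56% were called higher and 5.47% lower, and by the interval 28.4% were higher and 28.1% lower. CABP1, a calmodulin-like regulator of calcium channels, was the gene called higher, with 1244 and 1672 reads (1.18, 1.08 to 1.29). SCGN, which encodes secretagogin, a buffer of some caudal interneurons, had 42 and 12 reads (-0.96, -2.11 to -0.10).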
